A study of Rattus norvegicus with 56 samples.

Results

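Immediate early genes were followed from rat to rat in the mammary gland, through 10 of them: Fos, Fosb, Jun, Junb, Egr1, Egr2, Dusp1, Nr4a1, Atf3 and Ier2. Every probe set whose symbol in the platform's annotation, updated by Entrez ID, was that of a listed gene was taken, with no use of measured values. The list of genes itself was chosen with earlier results of these data known. All 10 listed genes were found, with 15 probe sets of the 15866 tested, which covered 10411 named genes. Jun had 3 probe sets (those ending in _s_at can match more than 1 transcript), Fos, Egr2 and Dusp1 had 2 each and the other members 1 each. Where 1 value a gene was needed, the probe set brightest on average in the 24 rats was taken.

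Immediate early genes are transcribed within minutes of a stimulus, such as a growth factor, a hormone, handling or stress, without new protein synthesis, and their short-lived transcripts soon decay. Kinase cascades reach their promoters through serum response factor with its Elk partners, at a site named the CArG box, and through CREB, at cyclic AMP response elements. Fos and Fosb pair with Jun and Junb as the dimeric factor AP-1, the Egr proteins and Nr4a1 are DNA-binding transcription factors, and the phosphatase Dusp1 switches MAP kinases off again. In tissue samples their transcripts are also known to respond to the minutes around death and dissection.

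The data are 56 arrays of the Affymetrix 1-colour kind, hybridised with mammary gland targets of 24 female rats of the inbred Wistar Furth strain. The 12 rats whose names begin with a were given an RXR treatment, in the words of the labels, and the 12 whose names begin with b were controls. No source used here gives the compound, its dose, the age of the rats or the time between death and tissue collection. The labels place 6 of the treated animals and 9 of the controls in diestrus, the others in proestrus or estrus (6 and 3). Fragmented labelled targets of the same rats were combined into 6 and 6 pools of 2, 4 and 4 pools of 3 and 1 pool of 12 for each treatment, the last with 4 arrays each, and rats a3 and b3 had 2 further arrays each. Values are log2 signals as deposited. No rat in a pool is new, so a pooled comparison is no independent repeat.

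The markers of a mammary gland with its fat pad were present. All 9 measured luminal epithelial markers, all 8 basal ones and 6 of 7 adipocyte markers lay above the median of all probe sets, against none of 5 skeletal muscle markers. Adipocyte markers ran higher in treated rats (5 of 7 rose, 1 fell) and luminal markers lower (8 of 9 fell, none rose). Basal markers were mixed (1 of 8 rose, 3 fell). Of all probe sets 18.1% were called in that comparison (limma, adjusted p below 0.05). As bulk tissue, the arrays cannot tell fewer cells of a type from less RNA per cell. Repeat arrays differed on a technical score, the main axis of their differences. The last array of the control pool of 12 lay at -12.4 against 8.44 to 11.1 for the others of that pool. The array of rat b3 that enters the individual values lay at -12.5 against 4.53 and 11.8 for its repeats, and a3 at -7.71 against -6.45 and 14.2. With the mean of the 3 arrays for a3 and b3, the treatment difference of Dusp1 was 0.63 log2 (limma, adjusted p = 0.015).

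Promoters are shown for the 4 members that held a classical stimulus-response element among the 7 with a promoter sequence in the table used, from RefSeq (build GRCr8): Egr1, Egr2, Dusp1, Ier2, Fosb, Junb and Nr4a1. Each line gives the 250 bases before the start. Capitals mark a CArG box in Egr1 and Egr2 and the full cyclic AMP response element TGACGTCA in Dusp1 and Ier2.
Egr1, chr18:26736828-26737077, plus strand: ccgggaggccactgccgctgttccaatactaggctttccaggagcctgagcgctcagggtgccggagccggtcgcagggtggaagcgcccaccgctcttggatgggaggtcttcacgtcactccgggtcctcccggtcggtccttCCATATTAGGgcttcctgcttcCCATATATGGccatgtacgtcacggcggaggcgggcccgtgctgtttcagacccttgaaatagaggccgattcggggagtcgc
Egr2, chr20:21054442-21054691, minus strand: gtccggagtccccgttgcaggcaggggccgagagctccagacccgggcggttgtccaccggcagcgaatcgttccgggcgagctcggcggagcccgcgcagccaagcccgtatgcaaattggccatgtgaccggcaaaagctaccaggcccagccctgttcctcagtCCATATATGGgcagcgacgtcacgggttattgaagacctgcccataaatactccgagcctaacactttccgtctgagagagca
Dusp1, chr10:17184603-17184852, plus strand: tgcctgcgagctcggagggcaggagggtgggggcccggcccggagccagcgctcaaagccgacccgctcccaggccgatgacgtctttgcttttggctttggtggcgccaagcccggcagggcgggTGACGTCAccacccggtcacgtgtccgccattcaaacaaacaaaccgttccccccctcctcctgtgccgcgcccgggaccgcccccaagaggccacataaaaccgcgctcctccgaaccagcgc
Ier2, chr19:40399123-40399372, plus strand: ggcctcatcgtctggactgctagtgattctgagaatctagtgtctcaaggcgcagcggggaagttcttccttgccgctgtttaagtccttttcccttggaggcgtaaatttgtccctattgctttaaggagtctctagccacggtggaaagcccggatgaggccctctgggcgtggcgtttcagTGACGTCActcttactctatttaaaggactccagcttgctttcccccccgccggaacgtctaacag

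Searched on both strands from 250 bases before to 50 after the start, a CArG box was found in Egr1, with its first base at 105 and at 83 bases before the start, and in Egr2, at 83 bases before it. Egr1 and Egr2 shared the same letters, CCATATATGG, at the same distance. Of all 33469 promoters in the table, 1.64% held a CArG box. TGACGTCA lay 124 bases before the start of Dusp1 and 66 bases before that of Ier2, and 1.83% of all promoters held it. Its inner part TGACG, which also lies within TGACGTCA, was found in 6 of the 7 member promoters, all but Fosb, against 21.2% of all. The starts used for Fosb, Egr2 and Nr4a1 lie inside the annotated span of the gene. The bases before the outer end of these genes were not searched. TGANTCA, the AP-1 site, was in 0 of 7 (7.33% of all), GCGNGGGCG, the Egr site, in Nr4a1 alone (4.98% of all), and GGGCGG in Nr4a1, Dusp1 and Egr2 (33.1% of all). These matches describe letters and are not evidence of binding.

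Of the AP-1 subunits, Fos varied most between rats. Its brighter probe set (1375043_at) ran in control rats from 7.05 in b2 over a median of 8.51 to 9.74 in b10, a 6.45-fold range, and in treated rats from 7.30 in a2 over 7.99 to 9.0 in a7. Of the 12 control rats, 3 lay above every treated rat and 1 below every one, so the groups overlapped widely. The treated mean was 8.04 ± 0.56 (SD, n = 12) and the control mean 8.49 ± 0.78 (SD, n = 12). The difference of -0.45 ± 0.26 log2 (SE) did not pass (limma, adjusted p = 0.27). The other Fos probe set (1371283_at) spanned 6.91 to 7.57 over all 24 rats and did not follow the first (r = 0.07, Spearman's rho = 0.13), so the pattern rests on the brighter probe set alone.

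Fosb, the close relative of Fos, was dim (12.4% of probe sets had a lower mean), and 1 rat stood out. Control rats lay between 5.21 and 5.47 with a median of 5.33. Treated rats lay between 5.14 and 5.59 with the exception of a7, at 6.44. That rat, in diestrus, was also the highest treated rat for Fos, Junb and Dusp1 and the lowest for Egr2. In all, 11 of 12 treated rats lay above the control mean. The treatment difference of Fosb was 0.19 ± 0.09 log2 (SE; limma, adjusted p = 0.15), and 0.10 without a7 (limma, adjusted p = 0.089). By the exact rank-sum test it passed (adjusted p = 0.022).

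Jun, the partner of the Fos proteins, was steadier. Its brightest probe set (1369788_s_at) ran from 8.99 over 9.18 to 9.45 in control rats and from 8.69 over 9.03 to 9.38 in treated rats. Treated rats lay lower on average on all 3 Jun probe sets, with differences of -0.27 to -0.14 log2 and adjusted p between 0.12 and 0.18 (limma). For 1374404_at 11 of 12 treated rats were below the control mean, yet the groups still overlapped. Junb, which competes with Jun for partners, ran from 8.15 in b6 over 8.72 to 9.55 in b10 in control rats and from 8.10 in a14 over 8.62 to 8.84 in a7 in treated rats. The 5 highest Junb values were all of control rats. The difference in means was -0.20 ± 0.13 log2 (SE; limma, adjusted p = 0.35). Atf3, a stress-induced factor that also pairs with Jun proteins, was dim, with 10.8% of probe sets at a lower mean. It lay between 5.08 and 5.78 in all 24 rats, highest in b14 and b10, with a treatment difference of -0.02 ± 0.07 log2 (SE; limma, adjusted p = 0.91).

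Among the zinc finger factors, Egr2 had the widest range of any member. Its brighter probe set (1387306_a_at) ran from 6.96 in b5 over 8.5 to 9.71 in b2 in control rats. In treated rats it ran from 7.07 in a7 over 9.61 to 10.20 in a8, an 8.75-fold range. Of the treated rats 5 lay above every control rat, while a7, a6, a4 and a11 lay at or below 8.10, within the lower part of the control range. The mean was 9.11 ± 1.11 in treated and 8.42 ± 0.86 in control rats (SD, n = 12 each), a 1.61-fold difference. With this spread the difference of 0.68 ± 0.38 log2 (SE) did not pass (limma, adjusted p = 0.24). The second Egr2 probe set (1398266_a_at) followed the first over the rats (r = 0.92, rho = 0.94), had 7 treated rats above every control rat and differed by 0.34 ± 0.13 log2 (SE; limma, adjusted p = 0.070).

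Egr1, the founding member of that family, ran from 9.67 in b6 over 10.65 to 11.52 in b10 in control rats and from 9.69 in a2 over 10.69 to 11.47 in a8 in treated rats. Both groups spanned nearly the same range. The treatment difference was -0.08 ± 0.18 log2 (SE; limma, adjusted p = 0.84). Nr4a1, an orphan nuclear receptor, ran from 7.88 over 8.19 to 8.77 in control and from 7.94 over 8.30 to 8.71 in treated rats, with a difference of 0.11 ± 0.09 log2 (SE; limma, adjusted p = 0.49). Ier2, a nuclear protein, ran from 7.73 over 8.46 to 8.75 in control and from 7.89 over 8.32 to 8.74 in treated rats. Its difference was -0.04 ± 0.12 log2 (SE; limma, adjusted p = 0.86), and both groups covered the same range.

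**Figure D1:**
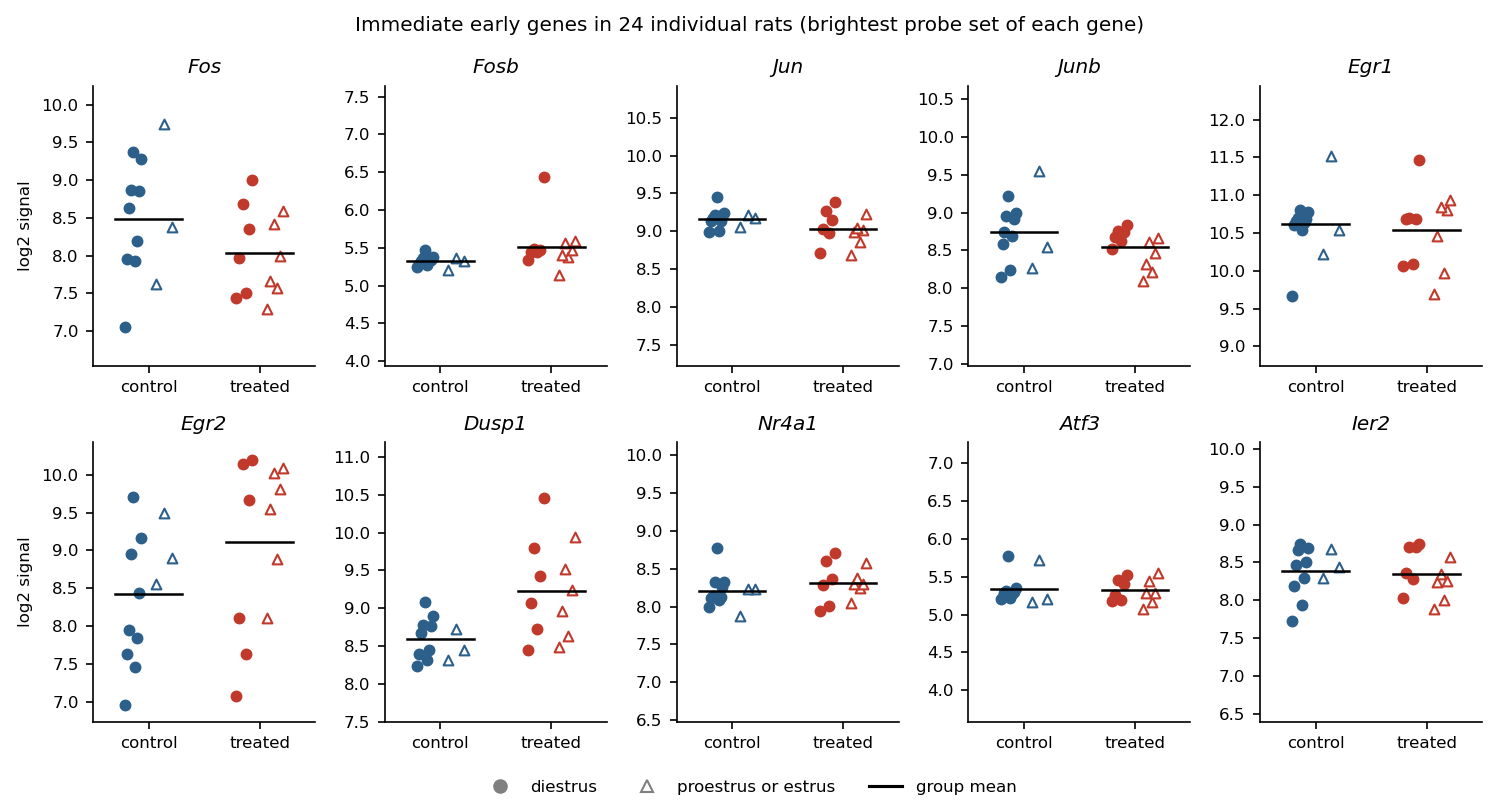
Log2 signal (y axis) of the brightest probe set of each member in 12 control and 12 treated rats (x axis), 1 point a rat, by stage, with the group mean as a line; every panel spans the same number of log2 units. Egr2, Fos and Dusp1 spread widest, treated rat a7 stands alone for Fosb at 6.44, and 6 treated rats lie above every control rat for Dusp1.

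Dusp1 was the only member that the test called between treatments in individual rats. It ran from 8.23 in b11 over 8.56 to 9.08 in b14 in control rats and from 8.44 in a9 over 9.16 to 10.46 in a7 in treated rats. In detail, 6 of 12 treated rats lay above every control rat, 10 lay above the control mean, and the lowest treated values fell inside the control range. The mean rose 1.56-fold, from 8.59 ± 0.27 to 9.22 ± 0.63 (SD, n = 12 each), a difference of 0.64 ± 0.18 log2 (SE; limma, adjusted p = 0.016). Without a7 the difference was 0.53 and still passed (limma, adjusted p = 0.023). The second, dim Dusp1 probe set (1368147_at) differed by 0.19 ± 0.07 log2 and just missed the threshold (limma, adjusted p = 0.054). The adipocyte markers moved with it: over the rats, with treatment means removed, Dusp1 followed the mean of the 7 adipocyte markers (r = 0.69), and that mean ran from 10.10 to 10.99 in treated and from 9.87 to 10.66 in control rats. With the adipocyte mean as a covariate, which itself differs between the groups, the Dusp1 difference was 0.12 log2 (limma, adjusted p = 0.69). In that fit, chosen after the data were seen, Egr2 differed by 1.60 (adjusted p = 0.0066) and Fos by -1.03 log2 (adjusted p = 0.014). With the endothelial marker mean as the covariate, also chosen after the data were seen, Dusp1 kept its call. Its dimmer probe set passed there too, at 0.22 log2 (limma, adjusted p = 0.020).

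The count of 1 called member probe set of 15 in individual rats stood beside 18.1% of all probe sets called. In the same fit 5 of 15 had an unadjusted p under 0.05 (29.1% of all), and the median difference of the 15 was -0.02 log2, against -0.00 over all probe sets. In pools of 2, 0 of 15 were called (8.82% of all), and 3 of 15 were at an unadjusted p under 0.05 (20.8% of all). In pools of 3, 1 of 15 was called (6.24% of all), which was Fos, and 5 of 15 were at an unadjusted p under 0.05 (19% of all). Among rats in diestrus 0 of 15 were called (8.73% of all; 2 at an unadjusted p under 0.05, against 21.7% of all), and among those in proestrus or estrus 0 of 15 (1.48% of all; 4 at an unadjusted p under 0.05, against 13.2% of all), all by limma. At the adjusted threshold the member shares were near or below those backgrounds. In these stage groups Dusp1 differed by 0.70 ± 0.24 and 0.64 ± 0.27 log2 (SE), Egr2 by 0.57 ± 0.52 and 0.42 ± 0.40, and Fos by -0.30 ± 0.34 and -0.66 ± 0.40. Single rats moved Egr2 and Fos. Without 1 rat Egr2 ran from 0.29 (without a8) to 0.91 (without a7) in diestrus and from 0.21 (without b10) to 0.69 (without a11) in proestrus or estrus. Fos ran from -0.48 (without b2) to -0.16 (without a5) in diestrus and from -1.14 (without b8) to -0.08 (without b10) in proestrus or estrus, and none of these passed.

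The stage of the cycle, compared as proestrus or estrus minus diestrus with treatment as a covariate, gave 0 calls among members and 0% of all probe sets by limma. At an unadjusted p under 0.05 the counts were 0 members and 581 probe sets of 15866. The widest member difference was that of Egr2, higher in proestrus or estrus by 0.67 ± 0.39 log2 (SE; limma, unadjusted p = 0.097). It had this sign in treated rats (0.61 ± 0.56) and in control rats (0.75 ± 0.48). Within the treated rats Junb differed by -0.30 ± 0.09 log2 (limma, unadjusted p = 0.0067, adjusted p = 0.999). Its treated values ran from 8.52 to 8.84 in diestrus and from 8.10 to 8.66 in proestrus or estrus, with overlap. Within control rats, where proestrus or estrus holds only b3, b8 and b10, Junb differed by 0.07 ± 0.25 log2. The tests within each treatment called 0% of all probe sets (552 and 308 at an unadjusted p under 0.05, of which 1 member probe set each, Junb in treated rats and the dimmer Egr2 in control rats). The interaction of treatment and stage, 0% too, had 322 at that level and no member.

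Most members spread widely between rats of 1 treatment. The variance between rats, with treatment means removed, was set against the variance between repeat arrays of 1 target (14 arrays of 4 targets), and a ratio above 4 was counted. It was above 4 for 11 of 15 member probe sets, against 21% of all (median ratio 4.83 for members and 1.42 for all). It was above 8 for 5 of 15, against 9.29% of all. The members were proposed for their variation between rats with earlier results of these data known, so these shares are a description and no test. For Egr2 the SD was 0.99 log2 between rats and 0.10 between repeat arrays, a ratio of 108 that ranked 14 among all 15866 probe sets. Egr1 reached a ratio of 46.6 (SD 0.46 and 0.07), Fos 34.4 (0.68 and 0.12), Junb 10.7 (0.34 and 0.10) and Ier2 8.15 (0.30 and 0.11). The ratio was 6.25 for Dusp1, 5.10 for Jun and 4.83 for Nr4a1, and 3.59 for Atf3. The ratio of Fosb was 4.43, and 0.81 without rat a7. Atf3, the dimmer Fos probe set and the 2 dimmer ones of Jun made up the 4 probe sets at or below 4, from 1.04 to 3.59.

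Repeat arrays of 1 target differed far less than rats for Egr2 and Fos, and less clearly so for Dusp1. Over the 3 arrays of a3, the 3 of b3, the 4 of the treated and the 4 of the control pool of 12, Egr2 spanned 0.26, 0.10, 0.09 and 0.28 log2. Fos spanned 0.18, 0.33, 0.18 and 0.28. Dusp1 spanned 0.35, 0.41, 0.46 and 0.39, beside a treatment difference of 0.64. The Jun probe set 1389528_s_at repeated worst among these, with 0.67 in a3 and 0.78 in the control pool. All of this covers the array and not the gland: each rat gave 1 RNA sample, so a difference between rats cannot be told apart from 1 between dissections or extractions. The spread of both treatment groups was also compared (absolute deviations from the group median, limma). Dusp1 deviated more in treated rats (0.27 ± 0.10 log2, SE, unadjusted p = 0.011, adjusted p = 0.95), and 0% of all probe sets were called, with 803 at an unadjusted p under 0.05.

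**Figure D2:**
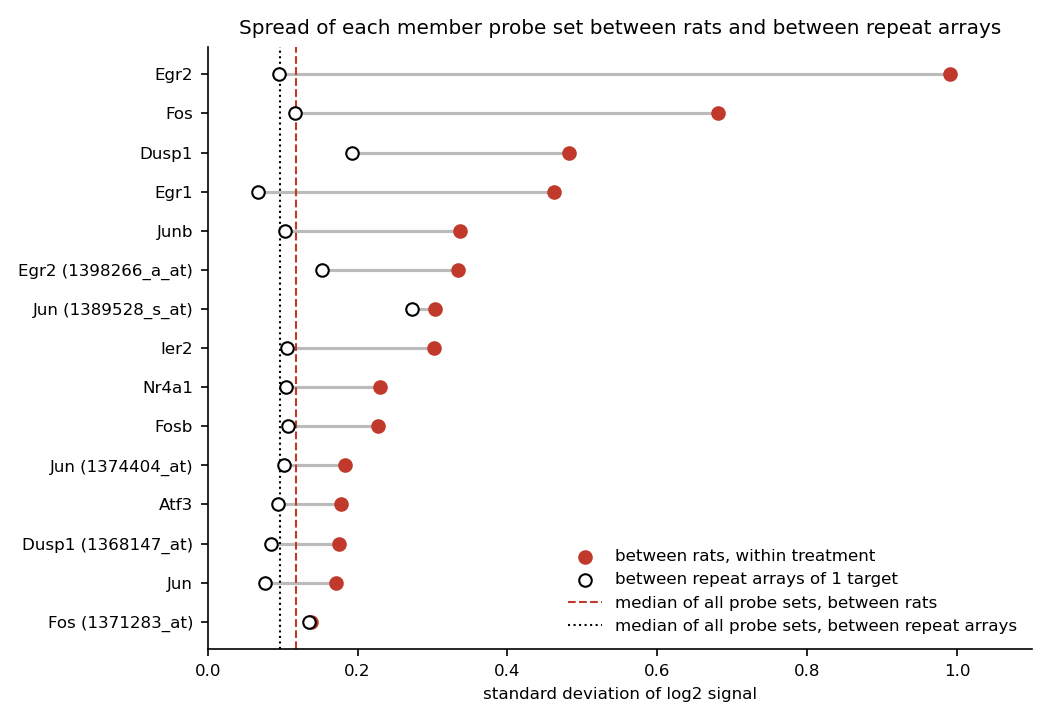
Standard deviation of log2 signal (x axis) of the 15 member probe sets (rows) between rats of 1 treatment (filled) and between repeat arrays of 1 target (open), with the medians of all 15866 probe sets as lines. Egr2 and Fos reach 0.99 and 0.68 between rats while their repeat arrays stay near the median of all probe sets.

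Members did not all move together. Over the 24 rats, on deviations from the treatment means, 12 of the 45 pairs of members passed a permutation test within treatment groups (two-sided, 100000 resamples, Benjamini-Hochberg over the 45 pairs), 10 positive and 2 negative, and 16 had an unadjusted p under 0.05. The median r over the 45 pairs was 0.24. How many pairs of all probe sets would pass such a test was not counted. The count of 12 can therefore not be read as particular to early genes. By Spearman's rho 7 of the 12 passed too. All pairs share the same RNA samples and arrays, so whatever varies from sample to sample enters every r.

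A first group held Fos, Junb, Atf3 and Dusp1. Fos and Junb ran together (r = 0.77, permutation adjusted p = 0.00067; rho = 0.71, adjusted p = 0.0058), and no other probe set of 15865 had a larger r with Junb than Fos. Without b2 and b10, the rats farthest in Fos, r was 0.66. In control rats r was 0.90 and in treated rats 0.43, a difference that was not tested. Fos and Atf3 ran together as well (r = 0.76, permutation adjusted p = 0.00067; rho = 0.79, adjusted p = 0.00045, and r = 0.74 without b2 and b10). Dusp1 followed Fos (r = 0.58, permutation adjusted p = 0.0064; rho = 0.59, adjusted p = 0.030; 0.64 without b2 and b10) and Atf3 (r = 0.58, permutation adjusted p = 0.0073), and Junb followed Atf3 (r = 0.63, permutation adjusted p = 0.011). Junb and Dusp1 were the weakest of the 6 pairs (r = 0.42, permutation adjusted p = 0.042, with 11.4% of probe sets larger in size), and did not pass in 10 of 24 tests that left out 1 rat. Junb and Atf3 missed the threshold without b10 (r = 0.50, permutation adjusted p = 0.051). The links of Dusp1 to Fos, Atf3 and Junb did not pass once the adipocyte or the endothelial marker mean, was removed. For Fos and Junb 0.359% of probe sets had a larger r with Fos in size, and for Fos and Dusp1 8.19%. For Dusp1 and Atf3 11.4% had a larger r with Dusp1 in size.

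Egr2 ran against Fos and Dusp1. With Junb (r = -0.30, permutation adjusted p = 0.24) and Atf3 (r = -0.46, permutation adjusted p = 0.067) it did not pass. Fos and Egr2 had r = -0.68 (permutation adjusted p = 0.0043; rho = -0.70, adjusted p = 0.0056), and r = -0.73 without b2 and b10. The sign was the same in treated rats (r = -0.81) and in control rats (r = -0.61). The rat with the lowest Fos, b2 at 7.05, had the highest control Egr2, 9.71, and the treated rat with the highest Fos, a7 at 9.0, had the lowest treated Egr2, 7.07. Dusp1 and Egr2 had r = -0.66 (permutation adjusted p = 0.0092; rho = -0.57, adjusted p = 0.047; -0.62 without a7 and a6). Of other probe sets, 2.80% had a larger r in size with Fos than Egr2 had.

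Egr1 did not join Egr2 (r = 0.31, which did not pass). It ran with Ier2 (r = 0.58, permutation adjusted p = 0.023; rho = 0.50, adjusted p = 0.073; 0.48 without b6 and a2), and Ier2 ranked 13 of 15865 other probe sets by r with Egr1. Junb with Ier2 (r = 0.52, permutation adjusted p = 0.048) and with Egr1 (r = 0.49, permutation adjusted p = 0.046) passed narrowly. Without b10 and b6 these were 0.36 and 0.19, so the relation with Egr1 rests on those rats. Junb with Ier2 did not pass in 18 of 24 tests that left out 1 rat, Junb with Egr1 in 15 and Egr1 with Ier2 in 2 (without a8 or b6). Junb with Ier2 did not pass with stage means removed either (permutation adjusted p = 0.062). Fosb and Dusp1 (r = 0.63, permutation adjusted p = 0.042) rest mostly on a7. Without a7 alone r was 0.32 (permutation adjusted p = 0.42), without a14 alone 0.59 (0.082) and without both 0.21. In treated rats r was 0.70 and in control rats 0.008. The pair did not pass in 7 of 24 tests that left out 1 rat. Jun and Nr4a1 were in no pair that passed.

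**Figure D3:**
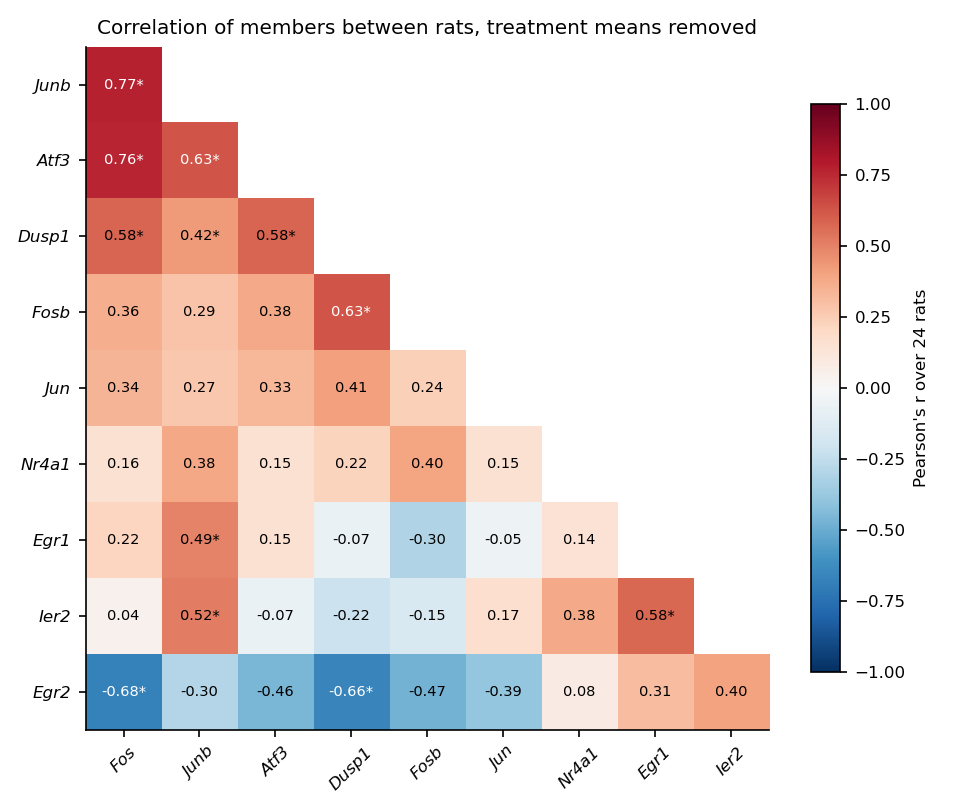
Pearson's r over 24 rats, treatment means removed, for the 45 pairs of members (brightest probe sets), in colour from -1 to 1; an asterisk marks an adjusted permutation p under 0.05. Fos, Junb, Atf3 and Dusp1 are positive among themselves, and Egr2 is negative with Fos (-0.68) and Dusp1 (-0.66).

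**Figure D4:**
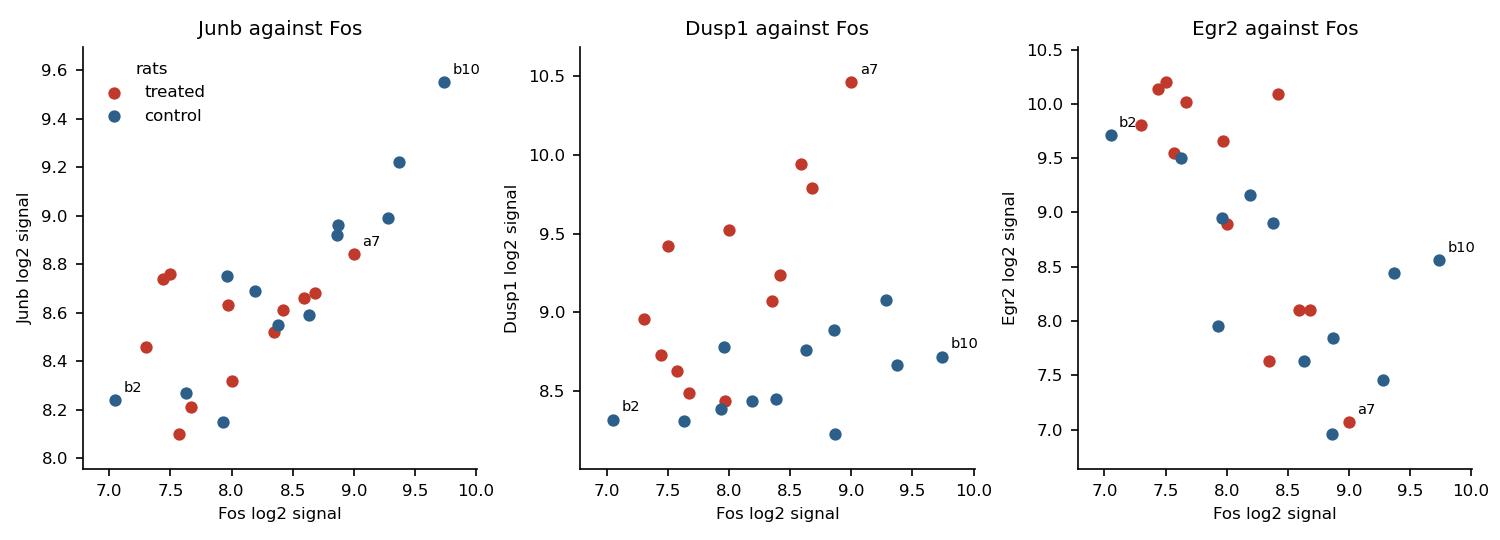
Log2 signal of Junb, Dusp1 and Egr2 (y axes) against that of Fos (x axes), 1 point a rat, treated in red and control in blue, with rats a7, b2 and b10 named. Junb climbs and Egr2 drops with Fos (r = 0.77 and -0.68 after the treatment means are removed), and the rats with the highest Dusp1, a7, a11 and a4, are all treated.

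Other measures moved with the same members, given here as a description. Over the 24 rats, treatment means removed, the mean of the 7 endothelial markers had r = 0.66 with Fos, 0.66 with Dusp1, 0.68 with Atf3 and -0.71 with Egr2, but -0.05 with Egr1 and -0.17 with Ier2. That mean ran from 7.97 to 8.61 in treated and from 8.06 to 8.83 in control rats. The adipocyte mean had r = 0.55 with Fos, 0.68 with Atf3, -0.60 with Egr2 and -0.13 with Egr1. The luminal mean had r = -0.66 with Atf3 and -0.49 with Dusp1. With the endothelial mean removed as well, 5 of 45 pairs passed. Of the 6 pairs among Fos, Junb, Atf3 and Dusp1, Fos with Junb still passed (r = 0.70). The other 5 did not: r was 0.56 for Fos with Atf3 (permutation adjusted p = 0.065), 0.49 for Junb with Atf3, 0.26 for Fos with Dusp1, 0.23 for Dusp1 with Atf3 and 0.18 for Junb with Dusp1. Egr2 passed with neither Fos (r = -0.40, permutation adjusted p = 0.17) nor Dusp1 (r = -0.36). With the adipocyte mean removed, 6 of 45 passed. Fos with Egr2 had r = -0.52 (permutation adjusted p = 0.071), and Dusp1 had r = 0.34 with Fos, 0.28 with Junb, 0.21 with Atf3 and -0.43 with Egr2, none passing. In both settings the pair Egr1 and Ier2 still passed, at r = 0.58 and 0.58. The part of the makeup of cells in these correlations was not tested beyond that. These settings were chosen after the data were seen. The 3' minus 5' signal of control transcripts, a measure of RNA quality, had r = 0.42 with Fos, 0.44 with Dusp1 and -0.33 with Egr2. With it removed 10 of 45 pairs passed, not all of them among the pairs that passed before. Fosb with Dusp1 (permutation adjusted p = 0.090) and Junb with Egr1 (0.068), Dusp1 (0.14) and Ier2 (0.082) no longer passed. Fosb with Atf3 (0.049) and Egr2 with Ier2 (0.039) passed only there. The technical score had r = 0.06 with Fos and -0.19 with Egr2, and 0.49 with Jun.

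Pools repeated the levels of their rats, which share the same labelled targets, though not for every probe set. Over 12 pools of 2, the Egr2 signal followed the log2 of the mean linear signal of the member rats with r = 0.99, Egr1 and Dusp1 with 0.94 and Fos with 0.94, against 0.50 for Fosb. For the Jun probe set 1374404_at r was 0.48, and for the dimmer Fos probe set 0.07. Over 8 pools of 3, r was 0.97 for Egr2, 0.90 for Fos and 0.89 for Dusp1. It was 0.39 for the Jun probe set 1389528_s_at, 0.28 for Fosb and -0.35 for the dimmer Fos probe set. The lowest Egr2 pool, of b12 and b14, read 7.21 where its rats gave 7.55, and the highest, of a2 and a3, read 10.19 where its rats gave 9.92. For Fos the pool of b10 and b11 read 9.35 where its rats gave 9.37. The median absolute difference over all 15 probe sets was 0.09 log2 for pools of 2 rats and 0.11 for pools of 3 rats. In pools of 3 the Egr2 value lay nearer the mean of linear signals (median absolute difference 0.10 log2) than the mean of log2 values (0.30). The pool of a10, a11 and a4, for example, read 9.12 against 9.09 and 8.76. In pools of 2 both gave about the same median difference for Egr2, 0.15 and 0.14.

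**Figure D5:**
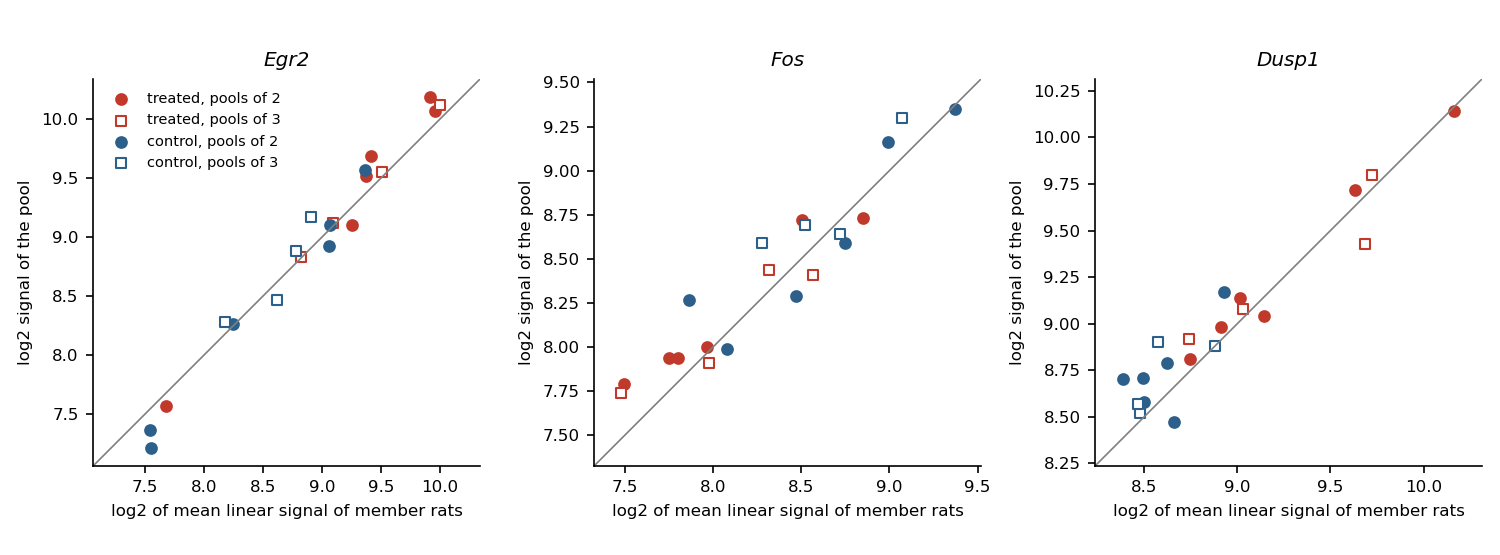
Log2 signal of each pool of 2 (filled circles) and of 3 (open squares) (y axes) against the log2 of the mean linear signal of its member rats on their own arrays (x axes) for Egr2, Fos and Dusp1, treated in red and control in blue, with the line of equality. The Egr2 pools follow their rats from 7.21 to 10.19.

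In pools of 3 the Fos values were 7.74, 7.91, 8.41 and 8.44 in treated and 8.59, 8.64, 8.69 and 9.30 in control pools. How many of all probe sets separate the pools in this way was not counted, and the same rats overlapped on their own arrays. The difference of -0.68 ± 0.18 log2 (SE, n = 4 and 4) passed narrowly (limma, adjusted p = 0.0498). It did not pass with the arrays centred on their medians (-0.65, adjusted p = 0.070), after quantile normalization (-0.63, adjusted p = 0.11), or when any of 7 of the 8 pools was left out (limma, adjusted p from 0.051 to 0.12). Only without the pool of a10, a11 and a4 did it still pass among these (adjusted p = 0.042). Dusp1 in the same pools ran from 8.92 to 9.80 in treated and from 8.52 to 8.90 in control pools (0.59 ± 0.17 log2, SE; limma, adjusted p = 0.062). In pools of 2 Dusp1 differed by 0.57 ± 0.20 log2 (SE; limma, adjusted p = 0.095) and Egr2 by 0.95 ± 0.47 (adjusted p = 0.27). The pools of 12, with no test, read 9.57 in treated and 8.75 in control for Egr2, 9.48 and 8.66 for Dusp1, and 8.23 and 8.77 for Fos, as means of 4 arrays of 1 mixture.

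Of 49 other early response genes on a fixed list, 44 were measured: 3 rose and 4 fell with treatment (limma; 18.1% of all probe sets called). The smallest p were those of Gadd45a, a growth arrest and DNA damage gene, higher by 0.82 ± 0.13 log2 (SE; adjusted p = 5.9e-05) and above the control mean in 12 of 12 treated rats, and of Crem, a cyclic AMP-responsive factor, higher by 0.24 ± 0.05 (adjusted p = 0.0011). Klf10 was lower by -0.41 ± 0.11 (adjusted p = 0.0075) and the chemokine Cxcl1 by -0.54 ± 0.15 (adjusted p = 0.012). Of 13 upstream genes of the pathway (kinases, serum response factor partners, CREB) 1 rose and 1 fell, and of 5 heat shock genes none was called. The ratio of variances was above 4 for 21 of 44 of the other early genes, 4 of 13 upstream genes and 3 of 5 heat shock genes. It was also above 4 for 7 of 7 adipocyte and 6 of 7 endothelial markers, so a wide spread between rats was not particular to early genes.

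The mean of the 10 members over the 24 rats, in which Egr2 weighs most through its wide range, was followed most closely among the other early genes by Ier3 (r = 0.62, rho = 0.58), Bhlhe40 (0.52), Socs3 (0.48) and Ier5 (0.48), as a description with no test. Among all named genes the most like were Stc1, the hormone stanniocalcin (r = 0.73), Spry2, an inhibitor of growth factor signalling (0.68), Tfe3 (0.67), Tiparp (0.65), Fhl3 (0.64), Vps37c (0.64), Zfp703 (0.64) and Coq10b (0.64). With each member scaled to the same SD first, a choice made after the data were seen, the 5 most like were Stc1 (r = 0.78), Cdkn2c (0.74), Adrb3 (0.72), Fdft1 (0.72) and Ier3 (0.71), which share only Stc1 with the first list.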

How the data were processed

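Mammary gland RNA of 24 rats was measured on 56 arrays. The authors deposited 1 value a probe set and array, used here as deposited and taken as log2 signal. For software, normalization and log base the entry is: not given in the sources used here. The range, 4.12 to 14.08, goes above the natural log (11.1) and stays below the log2 (16) of the largest 16-bit signal. Array medians were nearly equal (7.40 to 7.48). The number of arrays, with 1 RNA sample a rat, limits the precision.

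Of 15923 probe sets, 57 controls were left out. Symbols came from GEO's platform annotation, updated by Entrez ID for 12748 probe sets: 12783 had 1 symbol, 312 several and 2771 none listed. Differences were tested over all 15866 with limma 3.58.1 (R 4.3.3; lmFit, eBayes, Benjamini-Hochberg, adjusted p below 0.05). Correlations between rats used deviations from treatment means and 100000 permutations within treatment (smallest p 1e-05) in Python 3.11.15. The fit was also run on simulated data with errors independent between probe sets. That run does not cover probe sets that vary together. Rat numbers shared by both treatments were not taken as pairs in the main fit. For the 10 shared numbers, correlations of deviations ran from -0.39 to 0.36, with 5 over 0.1. They were not set beside pairs of unlike numbers, so they cannot decide whether the numbers pair rats.

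The members and lists were chosen with earlier results of these data known. Named genes were all members, from the other early genes the 4 with the smallest treatment p and the 4 with the largest r with the mean of the members, and the 8 other genes most like that mean. Alternatives covered normalization, dim probe sets, the variance prior, weights, covariates, a block, leaving out each array and a rank-sum test. Title and description were followed where 3 later arrays per pool of 12 carry a source field worded for 1 rat.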

Additional observations from a re-analysis of the deposited data

Results flagged for a closer look

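Of 135 groups of 4 to 10 arrays examined, 11 held an array far from the others of its group, where chance gives about 1 in 20. For Fos, the control pool of b10, b11 and b13 read 9.3 against 8.69 for the next pool, and b10 was also the rat with the highest Fos. The dimmer Fos probe set read 6.91 in treated diestrus rat a6 (next 7.23) and 7.57 in a11, treated and in proestrus or estrus (next 7.2). Fosb read 6.44 in treated diestrus rat a7 (next 5.49), the rat with the highest Dusp1 of all. Egr1 read 9.67 in control diestrus rat b6 (next 10.54), which also had the lowest Ier2 of all rats, 7.73. The dimmer Egr2 probe set read 7.53 in control diestrus rat b2 (next 7.1), the control rat with the highest value on the brighter probe set as well. Nr4a1 read 8.77 in control diestrus rat b15 (next 8.33) and 8.78 in the pool of b13 and b15 (next 8.13), so the same rat stood out on its own array and in its pool. Atf3 read 5.78 in control diestrus rat b14 (next 5.35). Both dimmer Jun probe sets were lowest on the last array of the control pool of 12, at 8.01 (next 8.72) and 7.21 (next 7.44), the array at -12.4 on the technical score.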

How the results depend on the processing

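In individual rats 1 member probe set was called, beside 18.1% of all probe sets. The shares of all probe sets in the other settings are not given here, so the member counts are no result about the members. The member count was 2 with an intensity trend in the prior, 3 with array weights, 2 with stage as a covariate, 3 with the 3' minus 5' difference, 3 by the exact rank-sum test, 4 with the adipocyte mean and 2 with the endothelial mean as a covariate (both chosen after the data were seen), and 1 to 4 when each rat was left out. Dusp1 kept its call in all 24 of these, at 0.53 to 0.71 log2 (limma, adjusted p from 0.0060 to 0.031). With the rat number as a replicate block 4 were called: Fos -0.69 (limma, adjusted p = 0.035) and Egr2 1.11 (adjusted p = 0.016) passed, and Dusp1, at 0.46, did not (adjusted p = 0.11). That fit compares only the 10 numbers found in both treatments, so a4, a7, b13 and b15 add nothing to the difference. Whether the numbers pair the rats was not settled. In pools of 2, leaving out each pool gave 0 to 1 member calls. In pools of 3 the 1 call became 0 on median-centring and on quantile normalization, 2 without dim probe sets and 2 with the trend, and 0 to 1 when each pool was left out, with 503 to 1020 calls over all probe sets. Among rats in diestrus, leaving out each rat gave 818 to 1602 calls over all and 0 to 1 among members, and in proestrus or estrus 0 to 583, with 113 on median-centring. Stage gave 0 to 1 calls over all. The 12 passing pairs became 6 and 5 with the adipocyte and endothelial means removed, 2 in treated rats alone and 2 in control rats alone, where 12 rats remain, and 7 to 15 when each rat was left out. With a ratio of variances above 8 in place of 4, 5 member probe sets counted. Over single values no sign of a called value turned: 3071 of 3250 values in the fits and 1292 of 1440 correlations kept their direction and side of the threshold. Of the ratios of variances, 407 of 420 stayed within a set factor of their main value. Where no cause is named, the cause was not tested.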

Other observations

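The genes most like single members were looked up after the pairs had been seen, over the 24 rats with treatment means removed, as a description. Fos was followed most closely by Prkch, a protein kinase C gene (r = 0.86), Rasgrp3 (0.84), Tmem204 (0.82), Elapor1 (0.81) and the beta-3 adrenergic receptor Adrb3 (0.80), and ran most against Wdr18 (-0.84), Aatf (-0.82) and Erp29 (-0.82). Egr2 was followed by Trmt61a (r = 0.88), the filamin Flnc (0.86), Nip7 (0.86), Tars1 (0.85) and the chaperonin subunit Cct3 (0.85), and ran most against F11r (-0.85), Ccn2 (-0.85) and Mtg1 (-0.84). Ccn2, itself an early response gene, spanned 7.76 to 10.73 over the rats. Dusp1 was followed by the prostaglandin receptor Ptger3 (r = 0.84), Zfp423 (0.83), Lrrc39 (0.82), Serpina11 (0.82) and the lipid droplet gene Plin4 (0.82), and ran most against Macroh2a1 (-0.87), the ribosomal protein gene Rps3 (-0.86) and Trim28 (-0.85). The lists of genes most like Fos, Egr2 and Dusp1 did not share a gene. Of other early genes, Gadd45a ran with Fos (r = 0.74) and Dusp1 (0.77), and Homer1 with Egr2 (0.72).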
